A study of Mus musculus with 14 samples.

Results

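The genes described here are Dusp1 and 9 further genes of the immediate-early response and of its feedback control: Dusp6, Fos, Jun, Junb, Egr1, Ier2, Ier3, Zfp36 and Klf6. They are 10 of the 24411 genes counted in the livers, and were listed by name with the low Dusp1 level of tunicamycin-treated livers already known, so their values under tunicamycin are given as a description, with no test. Of the 10, 8 had enough reads to be tested, and Fos and Ier3 did not. Dusp1 was lower in every tunicamycin-treated liver than in every vehicle liver of both genotypes, and none of the other 7 tested members separated the treatments in that way. Over all genes tested, 44, or 0.456%, were lower in that way, so the trait is not particular to Dusp1.

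Immediate-early genes are switched on within minutes of a growth factor, hormone or stress signal, without new protein synthesis, and their messages are short-lived. Many encode transcription factors (the Fos and Jun families, which pair to form AP-1, together with Egr1 and Klf6), and others shut the signal off. Dusp1 removes the activating phosphates from the kinases p38, JNK and ERK in the nucleus, Dusp6 does so for ERK in the cytoplasm, and Zfp36 (tristetraprolin) binds AU-rich messages and speeds their decay. In liver, Dusp1 is also a gene induced by glucocorticoids.

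Liver RNA, selected as polyadenylated RNA, was sequenced from male littermates aged 5 to 7 months. All mice carried Rbbp5 alleles flanked by loxP sites. WT mice were Rbbp5 (flox/flox), Alb-CRE (-/-), and LKO mice were Rbbp5 (flox/flox), Alb-CRE (+/-). In LKO mice the albumin promoter drives Cre in hepatocytes, and deletion was not measured by cell type. Rbbp5 is a core subunit of the histone H3 lysine 4 methyltransferases; the sample labels spell the genotype RRBP5 LKO. Each genotype received an intraperitoneal injection in the morning, either of tunicamycin at 0.05 mg per kg in 500 µl of PBS with 3% DMSO or of that solvent, and livers were taken 8 h later. Tunicamycin blocks N-linked glycosylation and so stresses the endoplasmic reticulum. WT mice gave 3 libraries per treatment and LKO mice 4. In the LKO vehicle group, libraries 3 and 4 were nearly identical, close to what sampling noise alone gives, and their reads were added up as 1 sample, so that 13 samples remain.

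The promoters of 3 members are printed because their transcripts behaved differently across the groups: Dusp1, with the low values under tunicamycin, Dusp6, the related phosphatase, and Junb, with the largest genotype difference relative to its error. Each is the 250 bases before the annotated start of the gene, 5′ to 3′ on the gene's strand, from RefSeq on GRCm38.p6. Capitals mark each TGACG, the half-site of the cAMP response element (CRE), read on either strand, and the full palindrome where there is one. The windows are chr17:26508473-26508722 (minus strand) for Dusp1, chr10:99262981-99263230 (plus strand) for Dusp6 and chr8:84978749-84978998 (minus strand) for Junb.
Dusp1: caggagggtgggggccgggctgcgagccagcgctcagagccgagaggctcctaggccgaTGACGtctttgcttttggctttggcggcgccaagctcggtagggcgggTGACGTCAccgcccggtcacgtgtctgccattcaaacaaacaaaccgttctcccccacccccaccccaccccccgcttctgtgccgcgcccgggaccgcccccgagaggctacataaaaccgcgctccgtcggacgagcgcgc
Dusp6: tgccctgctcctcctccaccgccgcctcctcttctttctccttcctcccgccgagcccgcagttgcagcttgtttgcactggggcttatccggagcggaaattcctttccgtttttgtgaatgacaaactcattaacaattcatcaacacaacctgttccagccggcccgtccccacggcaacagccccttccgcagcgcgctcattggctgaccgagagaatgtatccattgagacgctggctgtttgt
Junb: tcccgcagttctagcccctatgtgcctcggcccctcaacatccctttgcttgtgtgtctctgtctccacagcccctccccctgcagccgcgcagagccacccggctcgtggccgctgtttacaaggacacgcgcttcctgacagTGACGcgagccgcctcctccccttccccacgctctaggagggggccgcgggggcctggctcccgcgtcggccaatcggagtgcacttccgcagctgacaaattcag

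The Dusp1 window held 3 half-sites, starting 191, 143 and 140 bases before the gene start, and the pair at 143 and 140 overlaps as the full palindrome TGACGTCA. The Junb window held 1 half-site, 106 bases before the start, and the Dusp6 window held 0. Promoter windows were at hand for 8 of the 10 members, those other than Egr1 and Ier2. Over 32851 windows of this length in the same table, 17.8% held at least 1 TGACG, 0.688% held 3 or more, and 1.55% held TGACGTCA. Among the 8 members, TGACG occurred in 3 and TGACGTCA in 1. The AP-1 site TGANTCA occurred in 0 of the 8 and in 6.75% of all windows, and the CArG box bound by serum response factor occurred in 1 (Zfp36) and in 1.47% of all windows. These matches describe the letters only.

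Reads on the gene's strand numbered from 6507018 to 13519421 per library, of which Rn45s, the ribosomal RNA precursor, took 72.5 to 75.5%, leaving 1704479 to 3551398. The members were therefore measured on few reads, from 11 to 198 per sample for Dusp1. At a tested member's mean reads over the 13 samples, the counting error ran from 9.39% of its level for Zfp36 to 20.3% for Ier2. It is larger for values on fewer reads, such as Dusp1 after tunicamycin, on 11 to 24 reads in WT and 17 to 28 in LKO livers. Rbbp5 itself was at 4.07 to 6.41 CPM (counts scaled to a common library size) in WT vehicle, 5.03 to 5.71 in WT tunicamycin, 1.90 to 4.15 in LKO vehicle and 2.06 to 3.46 in LKO tunicamycin livers, so that LKO vehicle 1 lay within the WT vehicle range. In their deviations across all genes, 9 of the 13 samples were most like their own group. WT tunicamycin 2 and LKO vehicle 2 were most like the LKO tunicamycin samples, and WT tunicamycin 3 and LKO vehicle 3 and 4 most like the WT vehicle samples. The labels do not say that each library is a separate mouse, so p-values measure the spread between these samples.

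Dusp1 (mm10 chromosome 17, 26505591 to 26508472) stood at 7.78, 8.84 and 9.91 CPM in the WT vehicle livers and at 1.65, 1.78 and 3.70 in the WT tunicamycin livers. In LKO livers it stood at 7.35, 6.13 and 11.7 with vehicle and at 2.27, 2.47, 2.34 and 3.04 after tunicamycin. All 6 vehicle samples lay above all 7 tunicamycin samples, with WT tunicamycin 3 the highest of the treated livers and LKO vehicle 2 the lowest of the vehicle livers. Means were 8.85 ± 1.06 (SD, n = 3) against 2.38 ± 1.15 (n = 3) in WT, and 8.41 ± 2.95 (n = 3) against 2.53 ± 0.35 (n = 4) in LKO. The log2 difference, tunicamycin minus vehicle, was -1.89 ± 0.30 (SE) in WT, a level 3.71-fold lower, and -1.74 ± 0.25 in LKO, 3.35-fold lower. It was -2.36 in WT without WT tunicamycin 3, and ranged from -1.94 to -1.39 in LKO as each sample was left out. Of the 9644 genes tested, 44, or 0.456%, were likewise lower in every treated than in every vehicle sample. Because Dusp1 was chosen on these values, that share is a description.

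**Figure D1:**
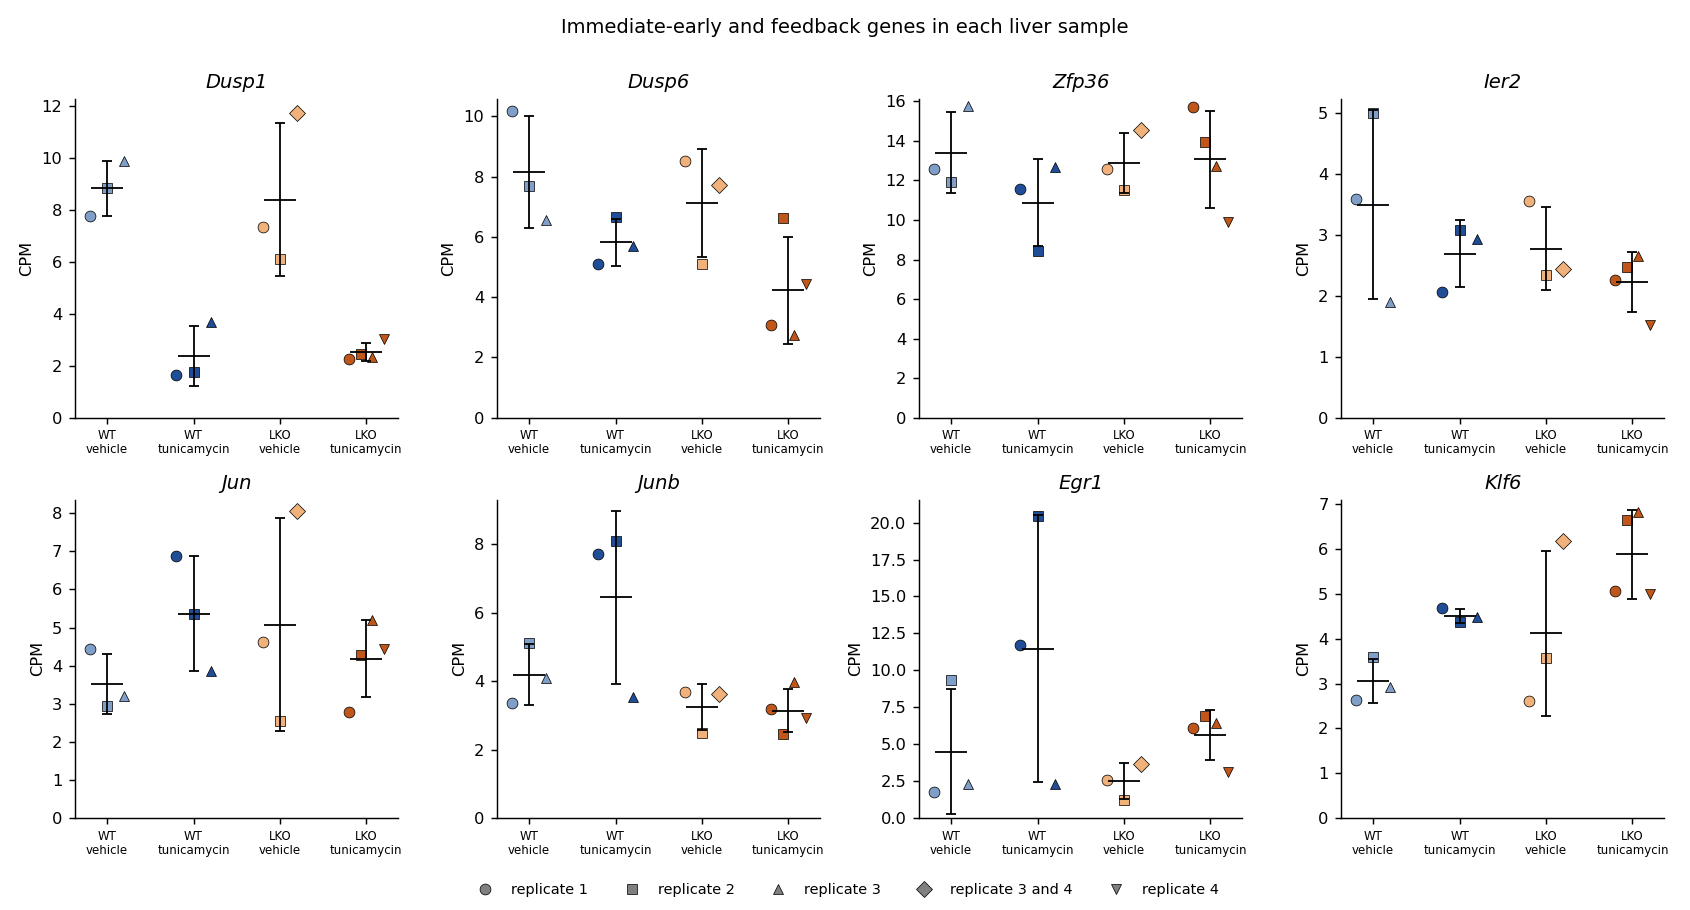
CPM of the 8 tested members in each of the 13 samples, by group; points are samples and horizontal bars are group means. The 6 vehicle points for Dusp1 lie at 6.13 to 11.7 CPM, above the 7 tunicamycin points at 1.65 to 3.70.

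Dusp6 (chromosome 10, 99263231 to 99267489), the ERK phosphatase, was read at 10.2, 7.69 and 6.56 CPM in WT vehicle and 5.09, 6.65 and 5.71 in WT tunicamycin livers. The LKO livers gave 8.53, 5.11 and 7.71 with vehicle, and 3.06, 6.64, 2.75 and 4.45 after tunicamycin. The treated means were lower, but in each genotype 1 treated sample reached above the lowest vehicle sample. The log2 difference was -0.50 ± 0.28 (SE) in WT and -0.75 ± 0.25 in LKO, smaller than that of Dusp1.

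Among the transcription factors, Fos (chromosome 12, 85473901 to 85477270) was barely present. It drew 30 reads over all 13 samples, with 0 to 7 in any 1, and the 7 were in WT tunicamycin 2. A count of 0, seen in LKO tunicamycin 3 and 4, allows up to 3 reads. Relative to each library's total reads, without the scaling used for the other CPM values, 3 reads are 0.222 to 0.461 CPM. With so few reads Fos was not tested, so nothing is concluded on a difference between groups.

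Jun (chromosome 4, 95049036 to 95052222), the main AP-1 partner of Fos, stood at 4.43, 2.95 and 3.21 CPM in WT vehicle and 6.88, 5.35 and 3.86 in WT tunicamycin livers. In LKO it was 4.62, 2.56 and 8.07 with vehicle, and 2.80, 4.29, 5.20 and 4.45 after tunicamycin. The groups overlapped in both genotypes, and the spread within LKO vehicle, between samples 2 and 3 and 4, covered the whole range of the gene. The log2 difference under tunicamycin was 0.60 ± 0.38 in WT and -0.30 ± 0.31 in LKO, and the latter became 0.30 without LKO vehicle 3 and 4.

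Junb (chromosome 8, 84976909 to 84978748), a relative of Jun, was at 3.35, 5.13 and 4.08 CPM in WT vehicle livers, and at 7.71, 8.11 and 3.55 in WT tunicamycin livers. The LKO livers held 3.67, 2.48 and 3.62 with vehicle, and 3.20, 2.47, 3.97 and 2.93 after tunicamycin. WT tunicamycin 1 and 2 were the highest of all 13 samples, and WT tunicamycin 3 lay among the rest. The log2 difference under tunicamycin was 0.63 ± 0.28 in WT, or 0.91 without WT tunicamycin 3. In LKO it was -0.03 ± 0.27, and its sign turned as single samples were left out.

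Egr1 (chromosome 18, 34861207 to 34864956), a zinc finger factor downstream of ERK, varied most. It was at 1.80, 9.35 and 2.33 CPM in WT vehicle, and at 11.7, 20.4 and 2.32 in WT tunicamycin livers. The LKO values were 2.61, 1.24 and 3.68 with vehicle, and 6.13, 6.90, 6.42 and 3.15 after tunicamycin. In WT the groups overlapped because WT vehicle 2 was high and WT tunicamycin 3 low, and in LKO only LKO tunicamycin 4 fell within the vehicle range. The log2 difference was 1.34 ± 0.60 in WT, and 1.13 ± 0.60 in LKO. The WT value rested on single samples: it was 2.46 without WT vehicle 2 and 1.81 without WT tunicamycin 3, but 0.66 without WT tunicamycin 2.

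Klf6 (chromosome 13, 5861489 to 5870393), a Krüppel-like factor of the injury response, was at 2.63, 3.59 and 2.92 CPM in WT vehicle livers, and at 4.68, 4.38 and 4.48 in WT tunicamycin livers. In LKO it was at 2.61, 3.58 and 6.17 with vehicle, and at 5.06, 6.64, 6.83 and 4.99 after tunicamycin. The WT groups did not overlap, and in LKO the vehicle sample 3 and 4 lay among the treated ones. The log2 difference was 0.57 ± 0.30 in WT and 0.45 ± 0.23 in LKO, and 0.89 in LKO without LKO vehicle 3 and 4.

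Zfp36 (chromosome 7, 28376784 to 28379228) was the steadiest member. It was at 12.6, 11.9 and 15.7 CPM in WT vehicle, 11.6, 8.43 and 12.7 in WT tunicamycin, 12.6, 11.5 and 14.5 in LKO vehicle, and 15.7, 13.9, 12.7 and 9.88 in LKO tunicamycin livers. The groups overlapped in both genotypes, with log2 differences of -0.29 ± 0.19 in WT and 0.01 ± 0.16 in LKO, where the sign turned with total count scaling and as samples were left out.

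Ier2 (chromosome 8, 84661331 to 84662852), a nuclear immediate-early protein, was at 3.59, 5.00 and 1.89 CPM in WT vehicle, 2.06, 3.08 and 2.93 in WT tunicamycin, 3.55, 2.34 and 2.43 in LKO vehicle, and 2.27, 2.47, 2.65 and 1.52 in LKO tunicamycin livers. These groups overlapped too, with log2 differences of -0.40 ± 0.33 and -0.28 ± 0.29. Ier3 (chromosome 17, 35821713 to 35822911), a regulator of cell survival, drew 19 reads in all and at most 6 in 1 sample, LKO tunicamycin 3, so it could not be compared.

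Under tunicamycin groups that did not overlap were found for 2 members in WT (Dusp1 lower, Klf6 higher), beside 17.3% of all genes, and for 1 (Dusp1) in LKO, beside 11.6%. Nothing is read from these counts, because the list was drawn up on this contrast. The median log2 difference of the 8 was 0.14 in WT and -0.15 in LKO, against 0.01 and 0.00 over all genes.

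For 7 of the 8 members the spread within groups was above that of the median gene. The SD of log2 CPM within groups was 1.03 for Egr1, 0.49 for Jun, 0.41 for Ier2, 0.40 for Dusp6, 0.39 for Junb, 0.38 for Dusp1, 0.33 for Klf6 and 0.25 for Zfp36. The median over all tested genes was 0.26, and 0.24 over those in the same range of reads. Egr1 spanned 16.5-fold between its highest sample (WT tunicamycin 2) and its lowest (LKO vehicle 2), Dusp1 7.11-fold and Zfp36 1.87-fold.

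Per unit of transcript length, in the deposited FPKM values, Zfp36 was the most abundant member in WT vehicle livers at 4.18 ± 0.689 FPKM (SD, n = 3), followed by Dusp1 at 2.35 ± 0.171. The samples of these 2 genes did not overlap, nor did those of Dusp1 and the next gene, Dusp6, at 1.52 ± 0.339. Below them Junb (1.29), Ier2 (1.23), Egr1 (0.715) each overlapped the next in order, down to Jun (0.599), and Klf6 (0.371) lay apart from both Jun and Fos (0.0706). Dusp1 was also second in LKO vehicle livers, at 2.26 ± 0.714, again apart from its neighbours. After tunicamycin it was at 0.591 ± 0.252 FPKM in WT, rank 7 of the 10, and at 0.738 ± 0.114 (n = 4) in LKO, rank 6, and in both it overlapped the genes next to it. The FPKM column of LKO vehicle 2 followed its own count file less closely than the other columns did, with a Pearson r across 2304 genes of 0.495 against 0.877 to 0.973, so LKO vehicle FPKM levels carry that uncertainty.

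**Figure D2:**
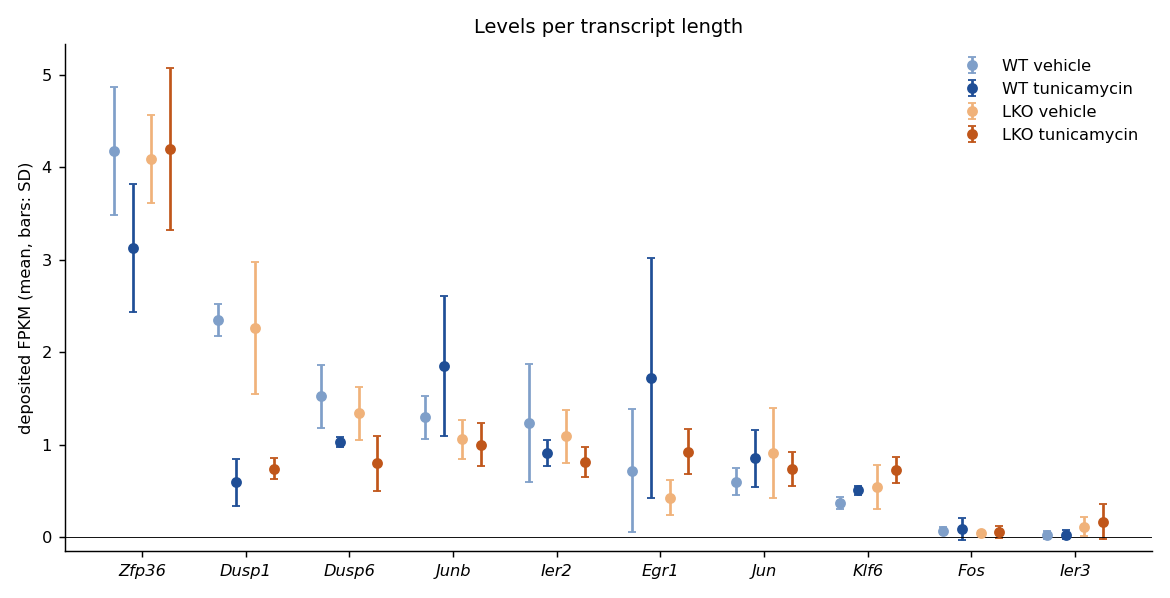
Deposited FPKM of the 10 members in the 4 groups; points are group means and bars are SD (n = 3, 3, 3 and 4 samples). Dusp1 is second to Zfp36 in both vehicle groups and lies among Jun, Klf6 and Dusp6 after tunicamycin.

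The comparison of genotypes asks whether loss of Rbbp5 in hepatocytes shifts the members. It is not stated to have entered their choice. They were chosen with earlier results of these data known, so whether it did cannot be told. With vehicle 0 of the 8 were called by edgeR's quasi-likelihood test, beside 0.0415% of all genes, and 0 had an unadjusted p under 0.05, beside 8.15%. DESeq2 called 0 as well. No member's groups were apart, beside 15.1% of all genes. The targeted gene Rbbp5 was itself not called, at -0.87 ± 0.26 (log2, SE; edgeR adjusted p = 0.330) with vehicle and -0.90 ± 0.25 (0.105) after tunicamycin. The absence of a call therefore does not show the absence of a change. For Dusp1 the log2 difference, LKO minus WT, was -0.05 ± 0.23 (SE; 95% interval -0.54 to 0.45; edgeR adjusted p = 0.986), with a direction that turned in 6 of 26 alternative analyses. The other 7 lay between -0.82 ± 0.67 for Egr1 and 0.55 ± 0.35 for Jun, with edgeR adjusted p from 0.655 to 0.979.

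After tunicamycin 0 of the 8 were called by edgeR, beside 0.861% of all genes, with 1 at an unadjusted p under 0.05, beside 15.8%, and DESeq2 called 0. That 1 was Junb, at 6.45 ± 2.52 CPM (SD, n = 3) in WT and 3.14 ± 0.629 (n = 4) in LKO, a log2 difference of -1.02 ± 0.27 (SE; 95% interval -1.59 to -0.46; edgeR adjusted p = 0.0801). Its groups overlapped through WT tunicamycin 3. Without that sample the difference was -1.32 and passed the threshold, with an adjusted p of 0.0184 in edgeR, and over the 26 alternatives the adjusted p ranged from 0.00961 to 0.260. For Klf6 the groups were apart, LKO higher by 0.38 ± 0.25, beside 12.9% of all genes, and this did not pass the test (edgeR adjusted p = 0.496). Dusp1 differed by 0.10 ± 0.34 (95% interval -0.61 to 0.82; edgeR adjusted p = 0.923). The remaining members lay between -1.02 ± 0.53 for Egr1 (edgeR adjusted p = 0.366) and 0.25 ± 0.18 for Zfp36 (0.525). The Egr1 value was -0.34 without WT tunicamycin 2 and -1.51 without WT tunicamycin 3. The median of the 8 was -0.31, against -0.01 over all genes.

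The interaction asks whether tunicamycin acted differently in the LKO. By edgeR 0 of 8 members were called, beside 0% of all genes, 0 had an unadjusted p under 0.05, beside 4.91%, and DESeq2 called 0. For Dusp1 the tunicamycin effect in LKO minus that in WT was 0.15 ± 0.41 (log2, SE; 95% interval -0.72 to 1.02; edgeR adjusted p = 0.999). The lowest interaction values were those of Jun, -0.90 ± 0.49, and Junb, -0.66 ± 0.39, both with an edgeR adjusted p of 0.981. The Jun value was -0.31 without LKO vehicle 3 and 4 and -1.24 without LKO vehicle 2.

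**Figure D3:**
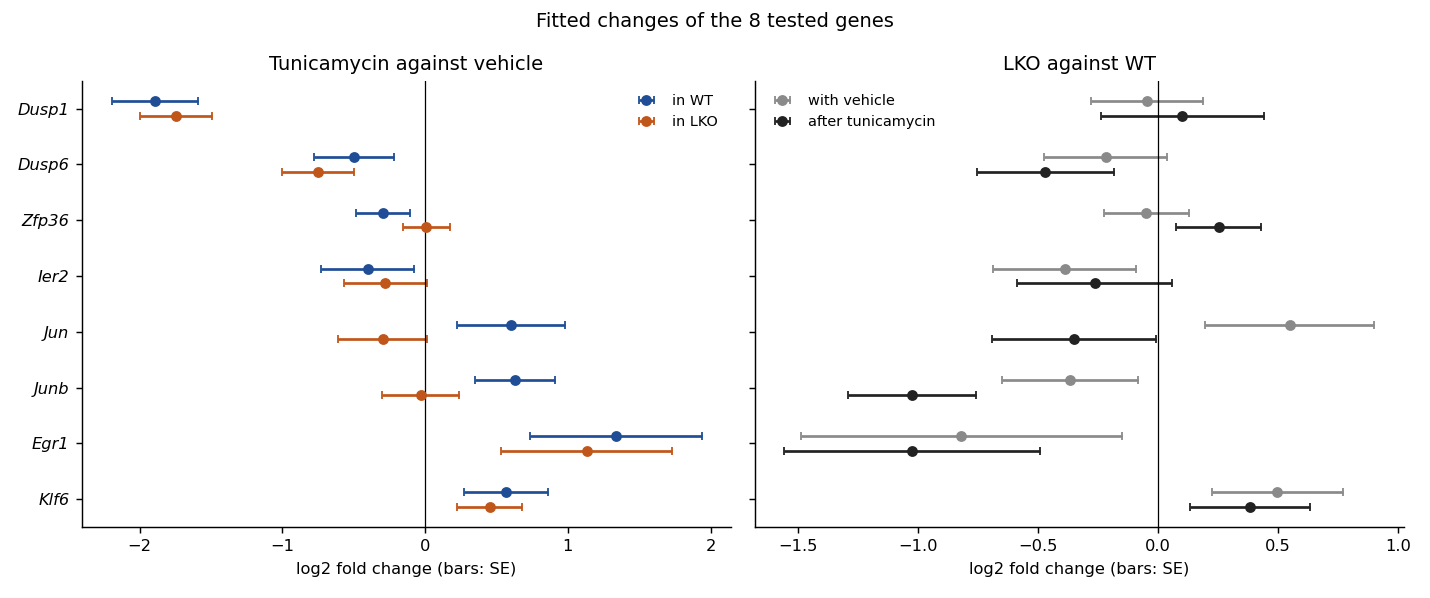
Log2 fold change of the 8 tested members in the 4 pairwise contrasts; points are edgeR estimates and bars are SE. Dusp1 lies at -1.89 and -1.74 under tunicamycin and near 0 between genotypes, and Junb lies at -1.02 for LKO against WT after tunicamycin.

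Bulk liver RNA holds several cell types, and fewer cells of a type cannot be told apart from less RNA per cell. Hepatocyte markers summed to 13146 to 22941 CPM over the 13 samples, far above those of every other cell type listed. Kupffer cell and macrophage markers summed to 50.4 to 58.0 CPM in WT vehicle and 73.9, 65.7 and 56.6 in WT tunicamycin livers. In LKO they summed to 37.9 to 62.5 with vehicle and 60.2 to 118 after tunicamycin. Their sums, and those of endothelium, stellate cells and lymphocytes, overlapped between treatments in both genotypes. The neutrophil marker Ly6g was not among the genes counted. The other 4 neutrophil markers had reads, although Retnlg was at 0 in 6 samples. Their sum was 0.256 to 1.02 CPM in WT vehicle, 0.948 to 2.77 in LKO vehicle and 4.23 to 7.68 in LKO tunicamycin livers. In WT tunicamycin livers it was 8.94, 4.70 and 0.309, so that the library with low Junb and Egr1, WT tunicamycin 3, was also low here. The sum of the 5 bile duct markers was 8.60 to 11.7 CPM in WT vehicle and 42.5, 31.9 and 8.49 in WT tunicamycin livers. It was 17.4 to 55.2 in LKO vehicle and 35.8 to 110.7 in LKO tunicamycin livers, which overlapped. Most of that sum was Spp1, at 35.6, 25.8 and 5.87 in WT tunicamycin livers, so it mainly follows that gene. The defining markers Krt19, Krt7 and Epcam were at 0 in 2, 2 and 3 samples and at most 0.831 CPM. The part of these cell types in the Junb and Egr1 values was not tested. Among the WT tunicamycin livers Dusp1 was highest in WT tunicamycin 3, and the part of these cells in the Dusp1 values was not tested either.

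Around the members, 94 further genes were taken from 3 functional lists: other immediate-early genes (26 of 40 tested), the MAPK cascade and its feedback (33 of 39) and glucocorticoid-responsive genes (15 of 16), 73 tested in all with 1 gene on 2 lists. Under tunicamycin edgeR called 0 of the 73 in WT, beside 0.363% of all genes tested, and 0 in LKO, beside 0.0311%. Without WT tunicamycin 3, 9 were called in WT, while calls over all genes rose from 35 to 615. At an unadjusted p under 0.05 there were 17 in WT (23.3%, beside 14.8% of all genes), 9 higher and 8 lower, and 11 in LKO (15.1%, beside 12.2%), 1 higher and 10 lower. DESeq2 called 2 in WT, Lcn2 and Mt1 (Mt1 is named after its values were seen), and 1 in LKO, Zbtb16. The median log2 difference of the 73 was 0.01 in WT and -0.05 in LKO, against 0.01 and 0.00 over all genes.

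Among glucocorticoid-responsive genes, Zbtb16, a zinc finger transcription factor, stood at 24.4, 24.9 and 28.0 CPM in WT vehicle and 15.7, 17.7 and 12.0 in WT tunicamycin livers. In LKO it was at 9.36, 6.21 and 27.1 with vehicle, and at 5.46, 3.90, 3.97 and 4.34 after tunicamycin. Treated samples were below vehicle samples in both genotypes, and LKO vehicle 3 and 4 was at the WT vehicle level while the other LKO vehicle samples were below it. After tunicamycin the log2 difference, LKO minus WT, was -1.78 ± 0.39 (SE), which edgeR called (adjusted p = 0.0441). That call was lost in 15 of 26 alternatives, among them leaving out any single WT or LKO tunicamycin sample, with an adjusted p from 1.37e-05 to 0.187. The tunicamycin effect was -0.77 ± 0.36 in WT (edgeR adjusted p = 0.335; 0.0466 without LKO vehicle 3 and 4) and -1.73 ± 0.37 in LKO (0.175). The LKO value was -2.10 without LKO vehicle 2 (edgeR adjusted p = 0.0103), -0.79 without LKO vehicle 3 and 4 (0.450), and passed the test without WT tunicamycin 3 (0.0445).

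Lcn2, which encodes the iron-scavenging acute-phase protein lipocalin 2, was at 4.07, 3.33 and 8.45 CPM in WT vehicle and 365, 378 and 5.56 in WT tunicamycin livers. The LKO livers gave 21.8, 285 and 32.6 with vehicle, and 413, 483, 298 and 307 after tunicamycin. WT tunicamycin 3 stood with the vehicle livers and LKO vehicle 2 with the treated ones. The tunicamycin effect was 5.58 ± 1.17 (log2, SE) in WT, with an edgeR adjusted p of 0.0512, and 1.72 ± 0.90 in LKO (0.469). The LKO value was 3.77 without LKO vehicle 2 (edgeR adjusted p = 0.102), and passed the test when WT tunicamycin 3 was left out with it. With vehicle the log2 difference, LKO minus WT, was 4.44 ± 1.13 (edgeR adjusted p = 0.260). It was 2.39 without LKO vehicle 2 (0.703), and passed the test at 4.44 without WT tunicamycin 3 (0.0258).

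Of the other immediate-early genes, 10 of 26 (38.5%, beside 15.8% of all genes) had an unadjusted p under 0.05 for LKO against WT after tunicamycin, 2 higher and 8 lower, and 1 of the lower ones, Socs3, was called. Their median log2 difference was -0.25, against -0.01 over all genes. The share was 9.09% (3 of 33) for the MAPK cascade and feedback list. It was 13.3% (2 of 15) for the glucocorticoid-responsive list, so both lay below that of all genes. The lists were chosen with earlier results of these data known. Socs3, the feedback inhibitor of cytokine receptors, was at 7.98, 7.13 and 2.16 CPM in WT tunicamycin livers, and at 1.47, 2.60, 1.53 and 1.63 in LKO tunicamycin livers. WT tunicamycin 3 again lay low and the groups overlapped through it. The difference was -1.69 ± 0.38 (log2, SE; edgeR adjusted p = 0.0459), or -2.08 without WT tunicamycin 3. The call was lost in 15 of 26 alternatives, among them leaving out any single LKO tunicamycin or WT sample other than WT tunicamycin 3. With vehicle Socs3 was at 2.87, 1.67 and 2.77 in WT and 2.25, 0.949 and 1.37 in LKO.

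In all, 2 of the 73 were called for LKO against WT after tunicamycin, both lower, beside 0.861% of all genes. At an unadjusted p under 0.05 there were 15, or 20.5%, beside 15.8% of all genes (4 higher, 11 lower). With vehicle edgeR called 0 of the 73, beside 0.0415%, with 7 (9.59%) at an unadjusted p under 0.05, beside 8.15%, and DESeq2 called 0. For the interaction edgeR called 0, with 3 (4.11%) at an unadjusted p under 0.05, beside 4.91%, and DESeq2 called 0.

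Groups did not overlap for 17 of the 73 (23.3%) in WT under tunicamycin, beside 17.3% of all genes, and for 3 (4.11%) in LKO, beside 11.6%. Those with the largest differences in WT included Id2, an inhibitor of basic helix-loop-helix factors, at 0.62 ± 0.17 (log2, SE), Dusp16, a JNK phosphatase, at 0.52 ± 0.15, and Mapkapk2, a kinase activated by p38, at 0.45 ± 0.18. Gadd45g, a growth arrest gene, was at -1.64 ± 0.65, from 8.62, 3.84 and 7.29 CPM with vehicle to 1.79, 2.43 and 2.16 after tunicamycin. Klf10, a Krüppel-like factor induced by transforming growth factor beta, was at -0.77 ± 0.27 in WT and -1.12 ± 0.26 in LKO. Its LKO samples were at 6.40, 5.62 and 7.89 CPM with vehicle and between 1.94 and 4.34 after tunicamycin. The edgeR adjusted p of these 6 values lay between 0.111 and 0.242. Without WT tunicamycin 3, Id2 was at 0.82 (edgeR adjusted p = 0.00262) and Dusp16 at 0.63 (0.0263), both past the threshold. Calls over all genes then numbered 615. In the other 12 leave-one-out fits neither gene passed, and the edgeR adjusted p reached 0.360 for Id2 and 0.422 for Dusp16.

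Between genotypes with vehicle 8 of the 73 did not overlap, beside 15.1% of all genes, and after tunicamycin 11 (15.1%), beside 12.9%. With vehicle those named as lower in LKO were Zfp36l1, the paralog of Zfp36, at -0.50 ± 0.21, Spred1, an inhibitor of Ras signalling to ERK, at -0.46 ± 0.17, and Id2, at -0.18 ± 0.17. After tunicamycin Id3, a relative of Id2, was at -1.15 ± 0.33 and Klf10 at -0.87 ± 0.29. Elk4, a partner of serum response factor at immediate-early promoters, was higher at 0.26 ± 0.13, and Creb1, which binds the cAMP response element, at 0.24 ± 0.12. None of these 7 values passed edgeR's threshold, with adjusted p from 0.110 to 0.836. Without LKO vehicle 3 and 4, Id3 passed it (edgeR adjusted p = 0.0429). In the other 12 leave-one-out fits Id3 did not pass, and its edgeR adjusted p reached 0.267.

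**Figure D4:**
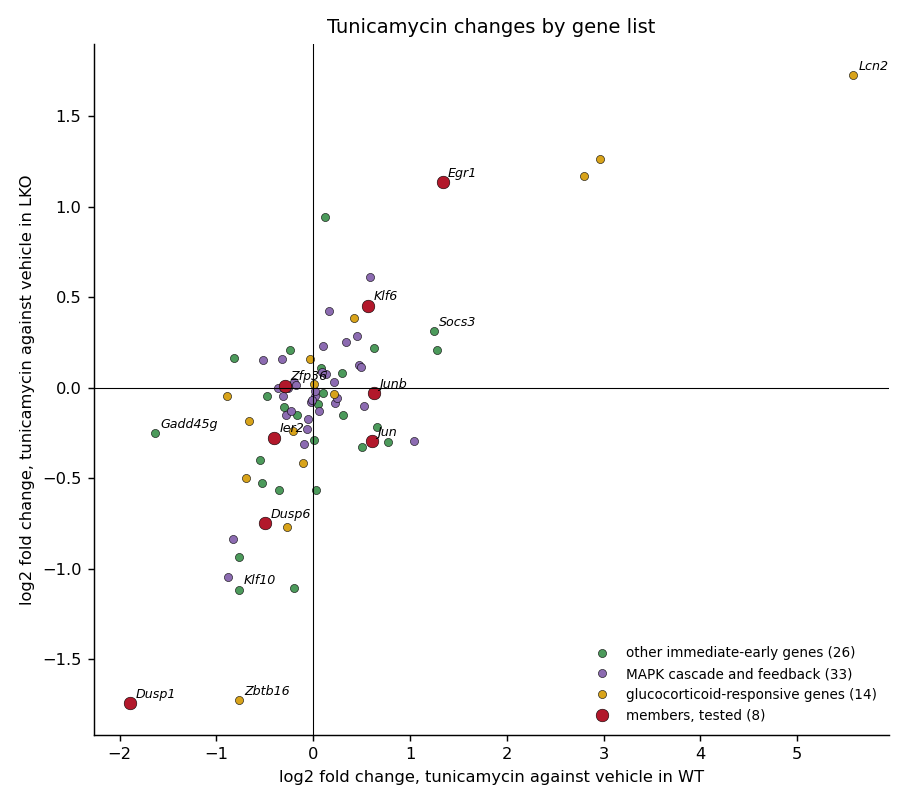
Log2 fold change under tunicamycin in WT (horizontal) and in LKO (vertical) for the 8 tested members and the 73 genes of the 3 lists; each point is a gene, coloured by list, and a gene on 2 lists is shown under 1. Dusp1 lies at the lower left, at -1.89 and -1.74, with Zbtb16 at -0.77 and -1.73, and Lcn2 lies at the upper right.

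The genes whose log2 CPM followed Dusp1 most closely over the 13 samples, among 5997 genes averaging 2 or more on that scale, were Deptor (Pearson r = 0.965), an inhibitor of the kinase mTOR, Smarca2 (0.963), an ATPase of the SWI/SNF remodelling complex, Ptprd (0.951), a receptor tyrosine phosphatase, Cyp4a12b (0.947), a fatty acid hydroxylase, and Marveld1 (0.935). Deptor averaged 113 and 108 CPM in the WT and LKO vehicle groups and 79.6 and 83.2 in the tunicamycin groups. Cyp4a12b averaged 20.1 and 16.9 with vehicle and 8.48 and 6.82 after tunicamycin. At the other end were Avpr1a (-0.935), a vasopressin receptor, Fndc3b (-0.929), Cd302 (-0.926), Tmem167 (-0.920) and Pi4k2a (-0.917). Avpr1a averaged 2.59 and 2.89 CPM with vehicle and 6.10 and 7.80 after tunicamycin. The samples share their treatment groups and libraries, so these values rank genes and carry no p.

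Measured the same way, the members followed Dusp1 loosely or ran against it: r was 0.619 for Dusp6, 0.387 for Zfp36, 0.313 for Ier2, -0.162 for Jun, -0.296 for Junb, -0.538 for Klf6 and -0.606 for Egr1. No comparison is drawn with the 10 genes named above, which were picked as the extremes of the ranking.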

How the data were processed

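Liver RNA of 14 libraries was measured. The authors deposited STAR counts, unnormalised whole reads for each gene per the file headers, and the FPKM values were deposited as 1 table; per the submitters' processing notes Trimmomatic, STAR and Cufflinks were used with build mm10, versions not given in the sources used here. Of 24886 FPKM entries, those under 277 repeated names were not used. No per-sample column went unused (0 columns).

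Reads on the gene's strand (column 3; 99.5 to 99.6% of stranded reads) were used. LKO vehicle 3 and 4 gave a chi-square of 1.12 per degree of freedom against 3.38 to 25.9 for the other 17 pairs, and were summed. Counts were fitted with edgeR 4.0.16 in R 4.3.3 (TMM, filterByExpr by group, quasi-likelihood test, 1 mean per group, 13 samples, 9644 genes, 9 residual degrees of freedom, 5 contrasts), and genes with a Benjamini-Hochberg adjusted p below 0.05, taken over the whole table, were called. CPM values are scaled by TMM library sizes, with a prior count of 2 on the log2 scale. The script was tested on simulated data. Alternatives used DESeq2 1.42.0, limma 3.58.1 on log2(FPKM + 1) or log2(FPKM + 0.1), and other settings; leaving out WT tunicamycin 3 with LKO vehicle 2, and FPKM without the LKO vehicle 2 column, were added after seeing the data. Reads are not unique molecules, so counting errors and limits at 0 cover counting only.

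The members and lists were chosen with earlier results of these data known. Named genes are the members, Rbbp5, called genes of the 3 lists, up to 3 genes per direction and contrast with the largest change, an average log2 CPM of 2 or more and groups that do not overlap, and the 5 genes most and least like Dusp1.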

Additional observations from a re-analysis of the deposited data

Results flagged for a closer look

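Socs3 had 1 sample far from the rest of its group: LKO tunicamycin 2 was at 2.60 CPM while the other 3 lay at 1.47 to 1.63, a gap of 0.857 of the group's range, above Dixon's 95% limit for 4 samples. Of 22 genes checked this was the 1 flagged, and chance flags about 1 in 20 groups. Without it Socs3 in LKO minus WT after tunicamycin was -1.89 (log2) and was no longer called by edgeR.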

How the results depend on the processing

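Few reads limit every value, and WT tunicamycin 3 and LKO vehicle 2 decide several. Under tunicamycin Dusp1 was lower in all 26 alternatives. In WT it was -1.08 with log2(FPKM + 1), with or without the filter, and -2.36 to -1.67 as each sample was left out; without WT tunicamycin 3 and LKO vehicle 2 together it was -2.36. In LKO it was -0.89 with log2(FPKM + 1), and -1.94 to -1.39 leaving out samples. The pseudocount of 1 shrinks low genes.

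Members called for LKO against WT after tunicamycin numbered 1 (Junb) with no filter on low counts, 0 to 1 leaving out samples, and 1 without both samples. Members called with vehicle and for the interaction stayed at 0 in every alternative run.

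For the 73 list genes under tunicamycin in WT, calls numbered 2 with DESeq2, 3 with total count scaling, 1 without Rn45s and Lars2 in the library sizes, 9 with no filter, 1 with 14 libraries, 1 with reads on either strand, 0 to 9 leaving out samples (9 without WT tunicamycin 3), and 9 without both samples. In LKO they numbered 1 with DESeq2, 2 with no filter, 0 to 1 leaving out samples and 5 without both. With vehicle they numbered 1 with no filter, 0 to 1 leaving out samples and 1 without both. For LKO against WT after tunicamycin they numbered 7 with no filter, 1 with only the 2 groups, 0 with every FPKM setting, including log2(FPKM + 0.1) without the LKO vehicle 2 column, and 0 to 4 leaving out samples. Except where samples were left out, the cause was not tested. Calls over all genes moved too. Under tunicamycin in WT they numbered 35 in the main fit, 289 with no filter, 615 without WT tunicamycin 3 and 650 without both samples. In LKO they numbered 3 in the main fit, 153 with no filter and 269 without both samples. For LKO against WT after tunicamycin they numbered 83 in the main fit and 261 with no filter.

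With the replicate block, calls among the 73 list genes numbered 0 in every contrast. Calls over all genes then numbered 38 under tunicamycin in WT, 5 in LKO and 32 for LKO against WT after tunicamycin. With the block, Dusp1 under tunicamycin was -1.92 in WT and -1.82 in LKO, and Dusp1 in LKO minus WT after tunicamycin was -0.00399. Samples with the same number did not deviate together (18 pairs, r -0.118 to 0.141), so no pairing by number was visible. With 3 or 4 samples per group this cannot exclude one.

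Some directions turned. Under tunicamycin in LKO Jun reached 0.30, Junb 0.0833 and Zfp36 -0.0880. Dusp1 in LKO minus WT with vehicle was 0.0397 with 14 libraries, 0.15 without both samples and 0.0815 from FPKM without the LKO vehicle 2 column, and -0.15 to 0.15 leaving out single libraries, or -0.40 without LKO vehicle 3 and 4. After tunicamycin it was -0.12 to 0.56 leaving out samples, and its interaction -0.0769 to 0.61. With vehicle Jun was -0.0451 without LKO vehicle 3 and 4, and Egr1 was -1.32 without LKO vehicle 3 and 4, -1.23 without WT vehicle 1 and 0.31 without WT vehicle 2. Ier2 was 0.0337 from FPKM without the LKO vehicle 2 column. Zfp36 was -0.14 without WT vehicle 2, 0.0665 without WT vehicle 3, 0.0277 without LKO vehicle 2, 0.0295 without both samples and 0.0450 from FPKM without that column. Total count scaling moved the median of all genes by -0.19 for tunicamycin in WT and by 0.15 for LKO against WT after tunicamycin.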
